A study of Mus musculus with 4 samples.

Results

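The genes of 9 transcription factors of the early tooth mesenchyme were examined for peaks of phosphorylated Smad proteins: Pax9, Lef1, Barx1, Lhx6, Lhx8, Pitx1, Osr2, Runx2 and Twist1. They are 9 of 21523 protein-coding genes placed on chromosomes 1 to 19 and X, and they were chosen by name for their role in the tooth. The tissue was the molar tooth germ of wildtype CD1 mouse embryos at the bud stage (E13.5, embryonic age in days), taken apart into single cells with no sort stated. CUT&RUN, in which an antibody brings a nuclease to the chromatin it binds so that the released fragments can be sequenced, was done with an antibody against Smad1/5 phosphorylated by BMP receptors (pSmad1/5, 2 libraries) and one against Smad3 phosphorylated by TGF-β and activin receptors (pSmad3, 2 libraries). Each antibody had 1 deposited list of peaks common to its libraries. The sources used here do not give the number of embryos pooled. Peak lists hold no expression with which to check the tissue. The files used here hold no value per library, so no spread between libraries can be given and no test was made.

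At the bud stage the dental epithelium grows into mesenchyme derived from the neural crest, and the mesenchyme condenses around it. BMP4 made by the mesenchyme and its homeobox factor Msx1 sustain each other, and Smad1/5 carries that signal to chromatin, together with Smad4. Pax9, a paired-box factor, is needed with Msx1 to keep Bmp4 on in the mesenchyme. Lef1 is the nuclear partner of β-catenin in Wnt signalling. Barx1, Lhx6, Lhx8 and Pitx1 are homeodomain factors that mark jaw and molar mesenchyme, Osr2 restricts teeth to a single row, Runx2 is needed for tooth and bone development, and Twist1 is a basic helix-loop-helix factor of cranial mesenchyme.

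Within 10 kb of these genes, pSmad1/5 peaks were about as frequent as at all genes, and there was no pSmad3 peak. The peaks in and around the genes were mostly low in their lists by total signal. By maximum signal they were typical, with medians of 16 for pSmad1/5 and 13 for pSmad3, the same as the list medians. The locus of a gene means here its RefSeq gene body widened by 10 kb at both ends, and an overlap of 1 bp counted. By that count 2 of the 9 genes had a pSmad1/5 peak, Lhx6 and Runx2 (22.2%), where 27.3% of all protein-coding genes had one. None of the 9 had a pSmad3 peak, where 24.4% of all protein-coding genes had one, and accordingly 0 had both, against 14.1%. The other 7 genes had neither, or 77.8% against 62.4% of all genes. The pSmad1/5 share lay near the background and is no result about these genes. For pSmad3 the count of 0 rests on 9 genes. In a mixture of epithelial and mesenchymal cells, binding in few cells and weak binding in many cannot be told apart, and a gene without a peak is one without a deposited call.

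Within 100 kb of the gene body the pSmad1/5 share was again near its background, and the pSmad3 share was below its own. Both rest on 9 genes. Of the 9 genes, 6 had a pSmad1/5 peak there (66.7%, background 59.9%), and 2 of 9 had a pSmad3 peak (22.2%, background 54.2%). The pSmad1/5 genes were Lef1, Lhx6, Lhx8, Pitx1, Osr2 and Runx2, and the pSmad3 genes were Barx1 and Lhx6. Lhx6 was the gene with both (11.1%, background 45.2%). Pax9 and Twist1 had neither (22.2%, near the background of 31.1%). In all, 12 pSmad1/5 peaks from 11 calls and 3 pSmad3 peaks from 3 calls lay in this reach, a call being the lines of a list that share their signal values and so are pieces of 1 region.

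**Figure D1:**
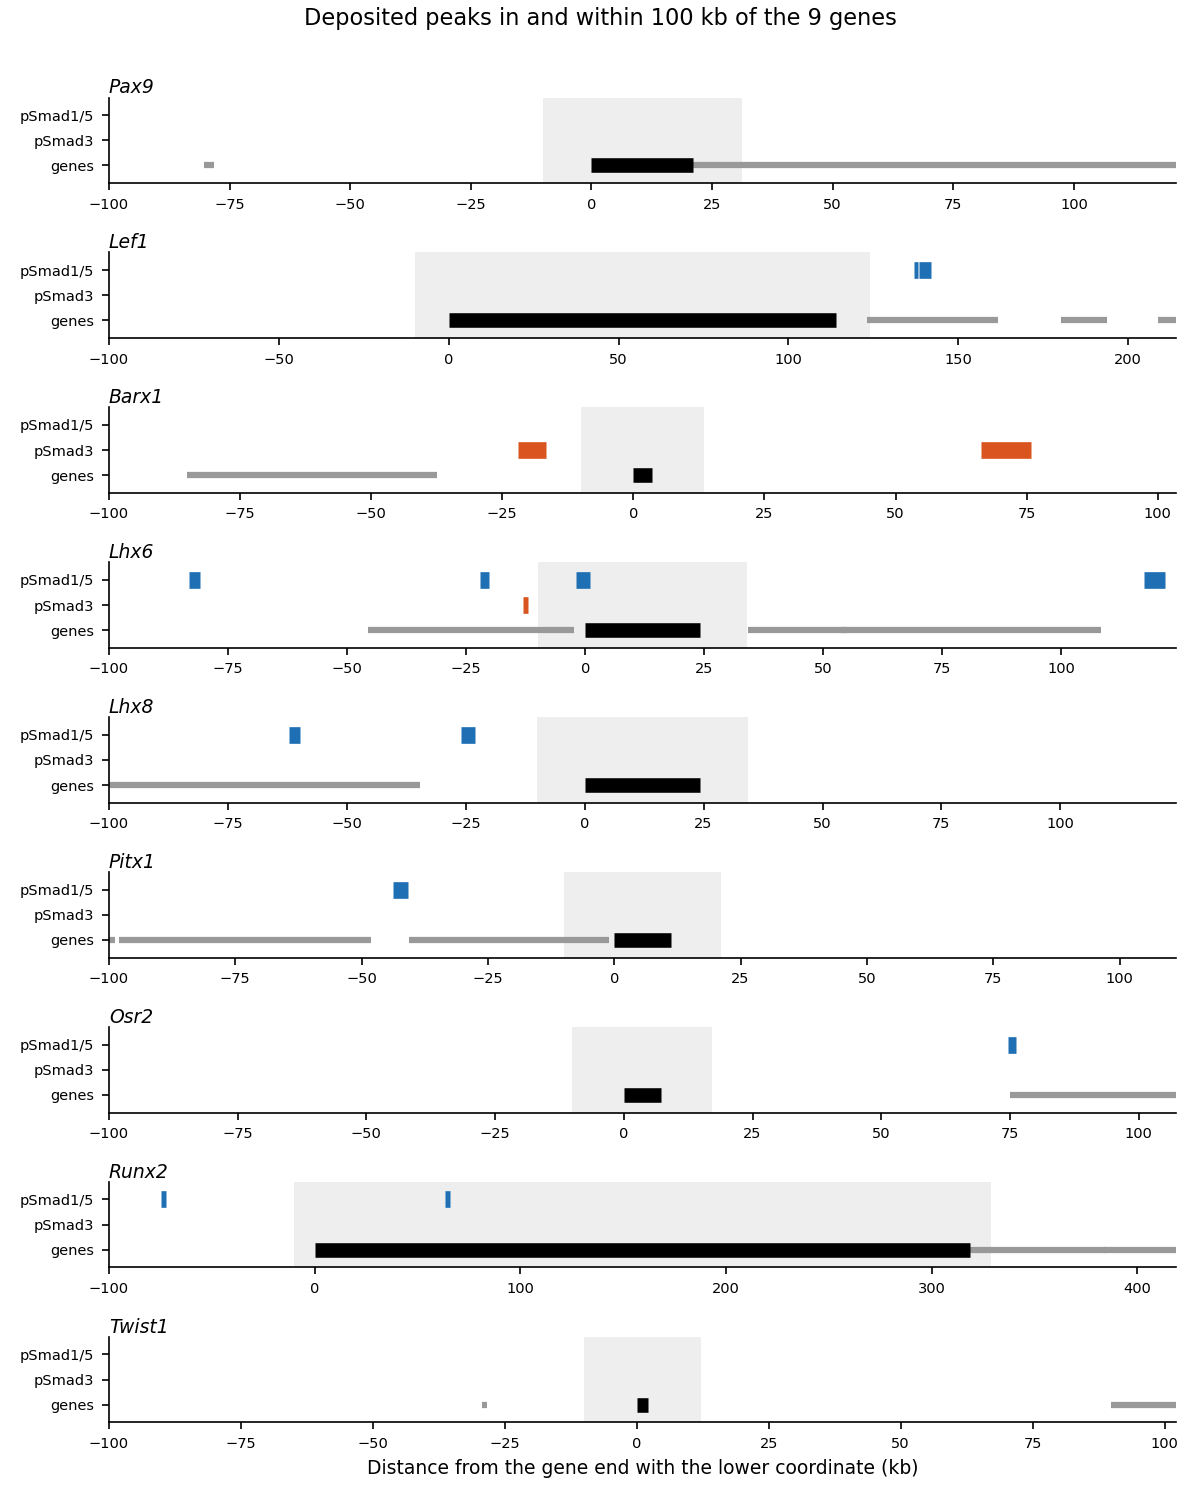
Peaks of each list around the 9 genes, from 100 kb before to 100 kb after the gene body. The x axis is the distance in kb from the gene end with the lower genome coordinate, black bars are the named gene, grey bars other protein-coding genes, the grey field is the gene body with 10 kb on either side, and blue and orange bars are pSmad1/5 and pSmad3 peaks, the shortest drawn wider so that they can be seen. Peaks touch the grey field at Lhx6 and Runx2, and the panels of Pax9 and Twist1 are empty.

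No listed transcription start of these genes carried a peak. The RefSeq promoter table (GRCm38.p6, the assembly of mm10) held 12 start sites for 7 of the genes, and none for Pitx1 and Osr2. None of the 12 windows of 250 bases before these starts touched a peak. Over all 32851 windows in that table, 3.03% touched a pSmad1/5 and 3.79% a pSmad3 peak. At shares this low, 0 of 12 windows lies near the background and is no result about these genes. The closest pSmad1/5 peak was 21.2 kb from a window of Lhx6, and the closest pSmad3 peak was 16.4 kb from the window of Barx1. The windows before the outermost listed start of 5 genes are shown because they are the stretches at which neither Smad branch had a call: Pax9, Lef1 and Barx1 for the GC-rich Smad letters they hold, and Lhx6 and Runx2 because these genes had peaks elsewhere in the locus. Each is written 5′ to 3′ on the gene's own strand and ends at the base before the start. Capitals mark the letters CAGAC or its complement GTCTG (the core of the Smad3 and Smad4 element), GGCGCC, and GGAGCC or its complement GGCTCC (GC-rich elements bound by Smads).
Pax9, chr12:56695221-56695470, plus strand: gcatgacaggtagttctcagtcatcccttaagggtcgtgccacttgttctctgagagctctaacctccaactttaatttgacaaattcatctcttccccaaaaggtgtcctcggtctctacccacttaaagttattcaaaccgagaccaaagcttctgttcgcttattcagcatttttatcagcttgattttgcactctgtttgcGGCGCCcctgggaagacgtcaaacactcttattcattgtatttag
Lef1, chr3:131110047-131110296, plus strand: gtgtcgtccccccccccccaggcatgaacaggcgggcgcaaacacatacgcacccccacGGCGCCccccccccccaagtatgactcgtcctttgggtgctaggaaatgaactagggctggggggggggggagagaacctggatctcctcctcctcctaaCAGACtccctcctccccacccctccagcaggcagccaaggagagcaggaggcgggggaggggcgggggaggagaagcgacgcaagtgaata
Barx1, chr13:48662786-48663035, plus strand: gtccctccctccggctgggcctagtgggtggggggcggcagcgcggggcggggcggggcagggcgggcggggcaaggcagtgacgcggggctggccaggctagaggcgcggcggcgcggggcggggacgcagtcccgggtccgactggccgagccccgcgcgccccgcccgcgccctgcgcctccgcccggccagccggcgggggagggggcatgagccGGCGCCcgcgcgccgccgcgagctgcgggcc
Lhx6, chr2:36105409-36105658, minus strand: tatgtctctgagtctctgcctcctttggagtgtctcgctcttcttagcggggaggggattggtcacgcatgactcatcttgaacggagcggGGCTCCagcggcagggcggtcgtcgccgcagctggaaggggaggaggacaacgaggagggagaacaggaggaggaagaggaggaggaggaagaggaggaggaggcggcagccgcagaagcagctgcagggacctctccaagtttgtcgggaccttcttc
Runx2, chr17:44814628-44814877, minus strand: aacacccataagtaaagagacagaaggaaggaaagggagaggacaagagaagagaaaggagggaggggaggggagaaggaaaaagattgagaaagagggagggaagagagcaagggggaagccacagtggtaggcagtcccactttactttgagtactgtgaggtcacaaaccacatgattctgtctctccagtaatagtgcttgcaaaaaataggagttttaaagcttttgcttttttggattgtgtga

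Searched on both strands, GGCGCC stood in 4 of the 12 windows, from 3 genes (Pax9, Lef1 and Barx1), and in 9.59% of all windows. The windows holding it were 43.6% G or C at Pax9, 66.4% at Lef1 and 85.6% at Barx1. The shares over all windows were not matched for base composition. CAGAC stood in 6 of 12 windows, from Lef1, Lhx6, Lhx8 and Twist1, and in 42.2% of all windows. GGAGCC stood in 1 window, that of Lhx6 printed above, and in 26.0% of all windows. The palindrome GTCTAGAC stood in none of the 12 and in 0.167% of all windows. The first 2 start windows of Lef1 overlap and share their matches. These are matches of letters, and the windows that hold them had no peak in either list.

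Lhx6, a LIM homeodomain factor of jaw mesenchyme, had the most peaks of the 9 genes. Its pSmad1/5 peak in the locus lay over the 3′ end of the gene (chromosome 2, gene 36081950 to 36105992 on the minus strand, peak 36080101 to 36082868, mm10), 21.2 kb from its nearest start. The authors' total signal of this call was 54815, above 49.7% of the list (its percentile), and its maximum signal was 15, against a list median of 16 (quartiles 15 and 19). That maximum did not lie in the peak itself but 4149 bp further into the gene, at 36087017. If the total is a sum of coverage over bases, a total of 54815 under a maximum of 15 needs at least 3655 bases, more than the 2768 bp of the deposited line.

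On the same 3′ side of Lhx6 the deposited lines of the 2 antibodies alternated without touching. A pSmad3 peak of 300 bp (36069263 to 36069562) lay 12.4 kb beyond the gene and inside Morn5, the next gene. It lay outside the 10 kb reach, while the maximum of its call (13, list median 13) was at 36073205, 8708 bp from Lhx6 and inside the locus. A pSmad1/5 peak (36059813 to 36061697, total signal percentile 31.5, maximum 16) lay 20.3 kb beyond the gene, also inside Morn5. Between the deposited lines, the gaps from the pSmad3 peak were 7566 bp to this peak and 10539 bp to the peak at the gene end. Each of these calls had its maximum outside its line, so the gaps between the calls themselves are not known. Further out, pSmad1/5 peaks lay 80.8 kb downstream near Ttll11 (percentile 35.5) and 93.3 kb upstream near Mrrf (percentile 67.1, maximum 17). The upstream one was the single pSmad1/5 peak of the 12 whose total signal stood above its list median, and a second piece of its call lay 103 kb from the gene, just past the 100 kb limit.

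Runx2, the factor required for bone and for tooth development past the bud, had 2 pSmad1/5 peaks and is the longest of the 9 genes (318811 bp). Of the 371 protein-coding genes with a locus length within 1.25-fold of it, 47.4% had a pSmad1/5 and 38.5% a pSmad3 peak in the locus. The pSmad1/5 peak inside the gene ran from 44559882 to 44561401 on chromosome 17. It lay 253 kb from the start at the far end of the gene, the only Runx2 start in the promoter table. Its total signal of 36912 stood above 5.7% of the list and its maximum was 14. As at Lhx6, the maximum lay outside the deposited line, 5641 bp away at 44567042 and still inside Runx2. A further peak (44421488 to 44423521, percentile 9.8, maximum 16) was 72.5 kb downstream, with Runx2 as its nearest protein-coding gene. The nearest pSmad3 peak was 111 kb downstream of Runx2 and 36054 bp from that pSmad1/5 peak.

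Barx1, a homeobox factor of the molar field, was the gene with pSmad3 peaks and no pSmad1/5 peak within 100 kb. One pSmad3 peak lay 16.6 kb upstream of its start (chromosome 13, 48641022 to 48646432, percentile 21.9, maximum 13), slightly closer to Ptpdc1 (15350 bp). The other lay 62.9 kb downstream (48729424 to 48738817, 9394 bp wide, percentile 81.0, maximum 15). This was the highest total signal rank of the 15 peaks, Barx1 was its nearest protein-coding gene, and it overlapped the lncRNA gene Gm36784. The nearest pSmad1/5 peak was 128 kb downstream, near Phf2, and belonged to a call in 3 pieces at percentile 84.2 with a maximum of 20.

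Lef1, Lhx8, Pitx1 and Osr2 each had pSmad1/5 peaks at a distance, all inside or closer to another gene. Downstream of Lef1, 2 pieces of 1 call lay inside Hadh, a gene of fatty acid oxidation, 23.0 and 24.5 kb from Lef1 (chromosome 3, 131247398 to 131248383 and 131248822 to 131252187). Their total signal was near the bottom of the list (percentile 3.4) while their maximum of 19 stood above 71.4% of it. Lhx8, the close relative of Lhx6, had a peak 23.0 kb downstream between genes (154280250 to 154283324, percentile 18.9, maximum 13) and one 59.9 kb downstream inside Slc44a5 (154244234 to 154246415, percentile 18.9, maximum 16). Pitx1, the homeodomain factor of the lower jaw and hindlimb, had a peak 40.9 kb away (chromosome 13, 55781321 to 55784179, percentile 44.4, maximum 13), 321 bp from Catsper3. Osr2, a zinc finger factor, had one 67.3 kb away over an end of Vps13b (chromosome 15, 35370646 to 35372256, percentile 16.8, maximum 13). The nearest pSmad3 peaks of these genes lay further off, at 319 kb for Lef1, 160 kb for Lhx8, 167 kb for Pitx1 and 1100 kb for Osr2. Of all protein-coding genes, 25.3%, 37.2%, 36.4% and 9.5% were at least as far from theirs. The distances of Lef1, Lhx8 and Pitx1 lay within the quartiles of all genes (11.0 and 326 kb).

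Pax9 and Twist1 stood in wide stretches without any peak. Pax9 (chromosome 12, 56691693 to 56712824) was 1890 kb from its nearest pSmad1/5 peak and 1140 kb from its nearest pSmad3 peak, and 2.08% and 9.24% of protein-coding genes were at least as far from theirs. It was the only member among the 1029 of 21523 protein-coding genes (4.78%) with no peak of either list within 1 Mb. Twist1 (chromosome 12, 33957671 to 33959831) was 547 kb and 548 kb from the nearest peaks, distances that 12.5% and 17.3% of genes reached or passed. Those peaks were the same place: pSmad1/5 at 33407007 to 33410731 and pSmad3 at 33406342 to 33409937 overlapped by 2931 bp, near Efcab10. Osr2 resembled Pax9 for pSmad3 alone, with 9.5% of genes at least as far away.

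**Figure D2:**
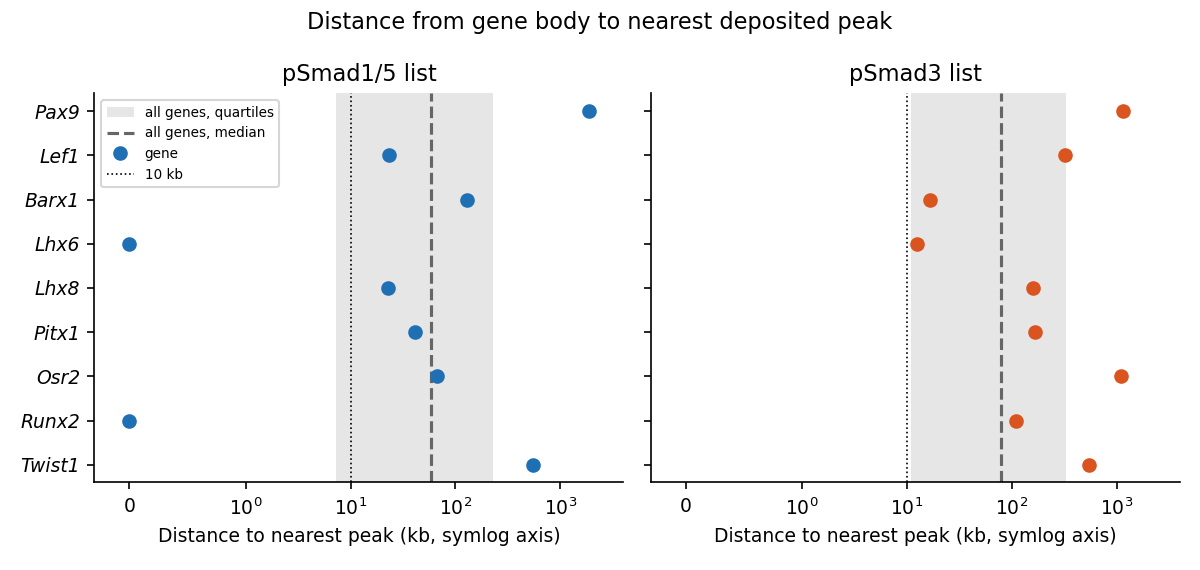
Distance from each gene body to the nearest peak of the pSmad1/5 list (left) and the pSmad3 list (right), in kb on an axis that is linear to 1 kb and logarithmic beyond. Points are the 9 genes, the grey field spans the quartiles of all protein-coding genes, the dashed line is their median and the dotted line marks 10 kb. Lhx6 and Runx2 sit at 0 on the left, no gene does on the right, and Pax9 lies past 1000 kb in both.

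Ordered by distance to the nearest pSmad1/5 peak, Lhx6 and Runx2 came first at 0, then Lhx8 and Lef1 at 23.0 kb each, Pitx1, Osr2, Barx1, Twist1 and Pax9. The median was 40.9 kb, against 58.1 kb over all protein-coding genes (quartiles 7.18 and 230 kb). For pSmad3 the order was Lhx6 (12.4 kb), Barx1 (16.6 kb), Runx2, Lhx8, Pitx1, Lef1, Twist1, Osr2 and Pax9. The median was 167 kb, against 79.2 kb (quartiles 11.0 and 326 kb). Of the 9 genes, 8 had fewer protein-coding neighbours within 100 kb than the median gene, with a median of 2 against 4. Within 1 Mb the 9 genes had a median of 8 pSmad1/5 and 5 pSmad3 peaks, against 11 and 8 for all genes, from 0 and 0 at Pax9 to 30 and 21 at Pitx1. The part that this sparse gene surrounding had in the distances was not tested.

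**Figure D3:**
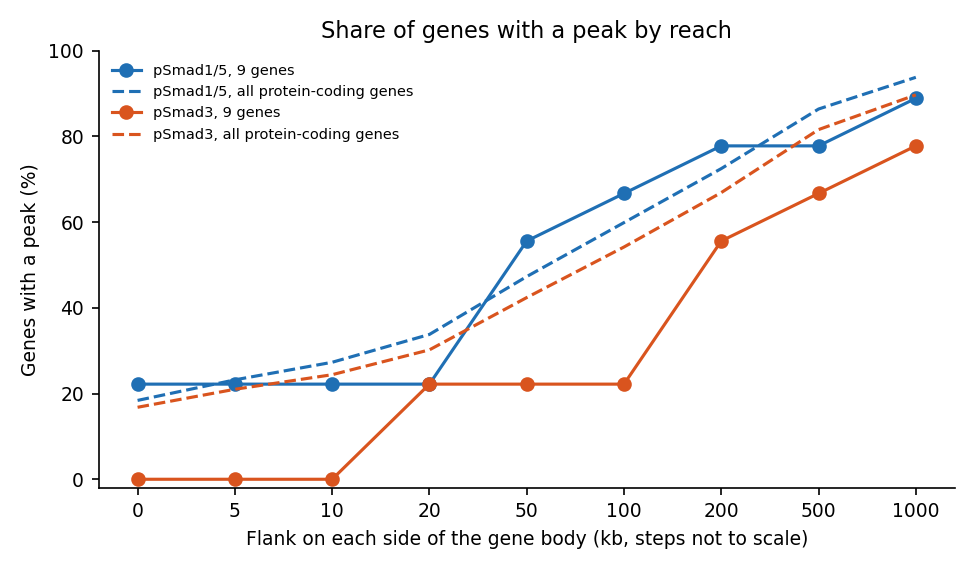
Share of genes with a peak as the flank counted on each side of the gene body grows from 0 to 1000 kb (steps not to scale). Solid lines are the 9 genes and dashed lines all protein-coding genes, in blue for pSmad1/5 and orange for pSmad3. The pSmad1/5 line crosses its background more than once and ends at 88.9%, while the pSmad3 line stays under its background at every step, from 0% to 77.8%.

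Most of the 15 peaks ranked below their list median by total signal, and none was shared. Of the 12 pSmad1/5 peaks 11 had a total signal below the list median, with a median percentile of 18.9 (range 3.4 to 67.1). The Lef1 call entered this count as 2 pieces. The 3 pSmad3 peaks stood between percentiles 21.9 and 81.0. Maxima ran from 13 to 19 for pSmad1/5 (median 16) and from 13 to 15 for pSmad3 (median 13), and the list medians were the same. Of the 15 peaks, 0 exceeded 2 times the list median. The upper quartiles of the whole lists were 19 and 15, so such maxima were uncommon there too. This 0 is no result about these genes. None of the 15 peaks overlapped a peak of the other antibody, whereas 21.9% of all pSmad1/5 and 23.1% of all pSmad3 peaks did. Apart from Lhx6, each gene with peaks within 100 kb had them from a single antibody, which left nothing there to overlap. Outside Lhx6 the 0 thus restates those counts and is no separate result. The region of the maximum touched the deposited line in 3 of the 12 pSmad1/5 peaks, where it did in 36.7% of that list. It did so in 2 of the 3 pSmad3 peaks, where it did in 74.8% of that list.

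**Figure D4:**
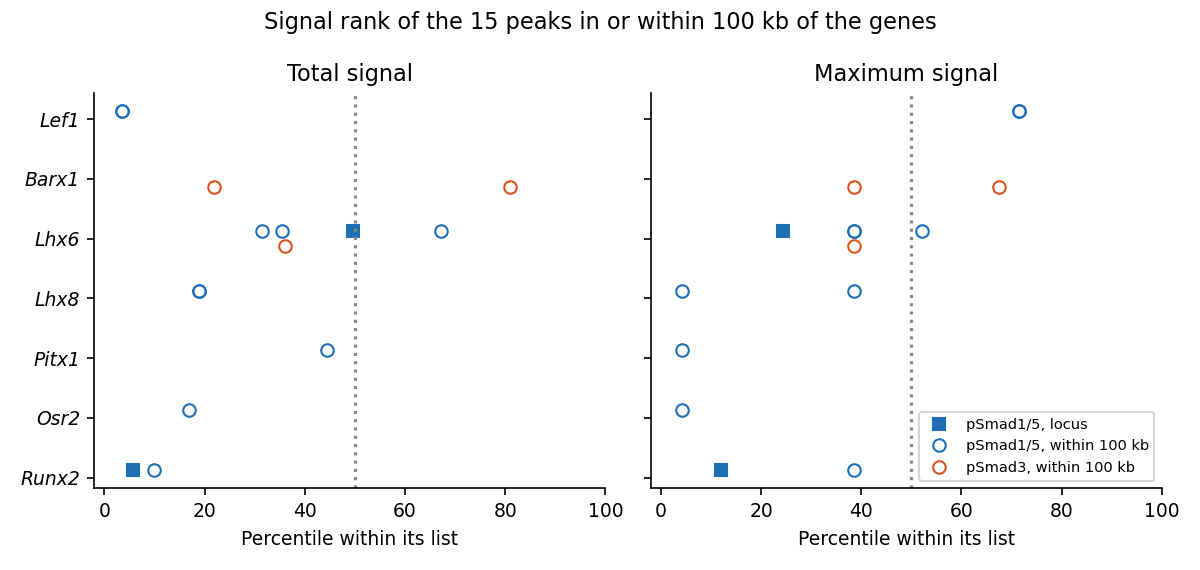
Rank of each of the 15 peaks by total signal (left) and maximum signal (right) within its own list, as the percentage of the list that lies below it. Squares are peaks in the locus, circles peaks within 100 kb, blue pSmad1/5 and orange pSmad3, and the dotted line is the 50th percentile. In the left panel 13 of the 15 peaks lie left of the line, and the 2 pieces at Lef1 coincide at 3.4 on the left and 71.4 on the right.

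The promoter table gave the strand for 11 of the peaks outside a gene body, and 9 of these lay downstream and 2 upstream, the latter at Barx1 (pSmad3) and Lhx6 (pSmad1/5). These are lines of the lists, and 2 of the 9 are pieces of 1 call at Lef1. The same split over all genes was not computed, so nothing is read from it. Of the 15 peaks, 6 overlapped another protein-coding gene, and 5 lay between genes but closer to another one. In 4 cases the named factor was itself the gene overlapped or nearest: the Lhx6 peak at its 3′ end, both Runx2 peaks and the downstream Barx1 peak. Closest to the limits of the count stood the Lhx6 pSmad3 peak at 12388 bp for the 10 kb reach, and for the 100 kb reach the Lhx6 pSmad1/5 pieces at 93277 and 103186 bp and a Pitx1 pSmad1/5 peak at 108731 bp.

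Of 19 paralogs of the 9 genes, 6 carried a pSmad1/5 peak within their locus (31.6%, background 27.3%) and 9 a pSmad3 peak (47.4%, background 24.4%). The pSmad1/5 share was near the background. Both peaks were found at 5 of the 19 paralogs (background 14.1%) and neither at 9 of the 19 (background 62.4%). The median locus length of all 19 was 43.7 kb, against 41.1 kb for the 9 genes. The paralogs described here are mostly those with peaks. Runx1, a regulator of blood formation, had 4 pSmad1/5 and 2 pSmad3 peaks, and Runx3 2 and 2, where Runx2 had 1 and 0. Tcf7l2, a β-catenin partner like Lef1, had 3 and 2, where Lef1 had 0 and 0. The other Lef1 paralogs counted had no pSmad1/5 peak either, with 0 and 1 at Tcf7 and 0 and 2 at Tcf7l1. Twist2 had 1 and 1, where Twist1 had 0 and 0, and Lhx3, a LIM homeodomain factor of the pituitary, had 1 and 2 (1 call each). Osr1 and Barx2 had 0 of either, as did their relatives Osr2 and Barx1. Osr1, Barx2, Tcf7 and Tcf7l1 were named after their values were seen. The difference between the 2 lists of genes was not tested. Peak counts per gene were not adjusted for gene length, and 47.4% of genes with a locus about as long as that of Runx2 had a pSmad1/5 peak.

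**Figure D5:**
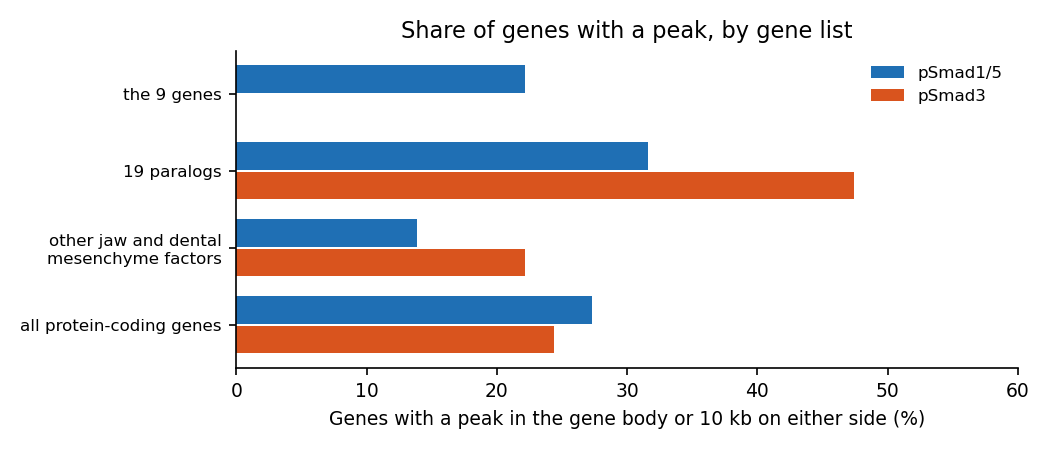
Share of genes with a peak in the locus (10 kb beyond both gene ends included), for pSmad1/5 (blue) and pSmad3 (orange), in the 9 genes, 19 paralogs, 36 other factors of jaw and dental mesenchyme and all protein-coding genes. The 9 genes have no orange bar (0%), and the paralogs have the longest one (47.4%).

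Of 36 other transcription factors of the jaw and dental mesenchyme, 5 had a pSmad1/5 peak (13.9%, background 27.3%) and 8 a pSmad3 peak (22.2%, near the background of 24.4%). Neither was found at 25 of the 36, a count near the background of 62.4%. The median locus length of all 36 was 29.2 kb, against 37.4 kb for all protein-coding genes. Gli2, an effector of Hedgehog signalling, had 5 pSmad1/5 and 6 pSmad3 peaks, the most of this list, and Gli1 had 2 and 1. Gli2 is a long gene (chromosome 1, 118834061 to 119054405), and these counts were not adjusted for gene length. Alx4, a homeodomain factor of facial mesenchyme, had 2 pSmad3 peaks and no pSmad1/5 peak. Of 10 mesenchymal signals, among them Bmp4, Fgf3, Fgf10, Inhba and Wnt5a, only Sfrp2, a secreted Wnt antagonist, had peaks, 1 of each antibody, that is 1 gene of 10 beside the same backgrounds of 27.3% and 24.4%.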

How the data were processed

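CUT&RUN libraries of E13.5 molar tooth germs, 2 per antibody, were processed by the authors. Per the submitters' processing notes, the build was mm10 and the tools were SEACR, Bowtie2, deepTools, bedtools and SAMtools, without versions. Settings, control and the rule for joining libraries: not given in the sources used here. For each antibody 1 list of peaks was deposited (10741 pSmad1/5 and 7905 pSmad3 lines), with the total and maximum coverage signal of each region, per the labels. The authors' scaling of that signal is not stated. Signal was ranked only within a list and over its lines, so a call in several pieces counted once per piece. The pSmad1/5 lines came from 8380 calls and the pSmad3 lines from 7682. Read depth is unknown.

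Genes came from the RefSeq table of GRCm38.p6 (chromosomes 1 to 19 and X, without entries in the first 3 Mb). Distances ran from gene body to nearest peak edge, overlap needed 1 bp, and promoter orientation was checked on 1241 overlapping opposite-strand windows, which all matched. Interval functions were tested on simulated data. Python 3.11.15, numpy 2.4.6 and pandas 2.3.3 were used. All 9 members are named; from each other list up to 5 genes with the highest total signal percentile were named. Some genes that this rule names are not reported here. Members and lists were chosen with earlier results of these data known. No sequence of the peaks themselves was used here. Alternatives covered reach, overlap, signal filters and calls.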

Additional observations from a re-analysis of the deposited data

How the results depend on the processing

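Of 39 alternatives, 25 left a count or median within 1.5 times its value and 14 moved it. Gene bodies alone, a 5 kb flank, peak midpoints and leaving out maxima over 2 times the list median kept the counts at 2 (pSmad1/5), 0 (pSmad3) and 0 (both). With a 50 kb flank they were 5, 2 and 1 (all genes 47.3%, 42.4% and 31.9%), with 100 kb 6, 2 and 1 (59.9%, 54.2% and 45.2%). With the region of the maximum in place of the line, pSmad3 had 1 gene (all genes 22.7%) and both had 1 (12.7%), Lhx6, through the maximum 8708 bp from it. Only peaks at or above the list median of total signal, or of maximum signal, left 0 genes with pSmad1/5 (all genes 14.4% and 17.5%). Median distances to the stronger peaks by total signal were 539 kb (pSmad1/5) and 402 kb (pSmad3), and from the nearest start, for the 7 genes in the promoter table, 132 kb and 387 kb. In the filters and the start setting, fewer peaks or fewer genes entered. Counts of peaks per locus and of shared peaks did not move. No paired analysis was possible because each antibody has 1 list joined from its libraries, and for the same reason no library could be left out. Lists without depth do not show how much signal there was at Pax9 or Twist1, or whether either library alone had a call there.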

Other observations

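Markers of epithelial, mesenchymal and other cell types were counted in the same way, beside all-gene shares of 27.3% for pSmad1/5 and 24.4% for pSmad3. The lists are short, and differences between them were not tested. Of 10 dental epithelium markers, 3 had a pSmad1/5 peak in the locus, Krt14, Shh and Fgf8 (percentiles 77.1, 0.3 and 2.2), and 0 a pSmad3 peak. Of 10 dental mesenchyme markers, which include 6 of the 9 genes, 2 had a pSmad1/5 peak, Lhx6 and Msx1 (percentiles 49.7 and 16.6), and 0 a pSmad3 peak. Of 5 endothelial markers, 2 had a pSmad1/5 peak, Cdh5 and Kdr, and 1, Kdr, a pSmad3 peak. Of 5 macrophage and blood markers, 1 had a pSmad1/5 peak, Csf1r, and 2 a pSmad3 peak, Csf1r and Cd68. Of 5 nerve and glia markers, 1 had a pSmad1/5 peak, Sox10, and 2 a pSmad3 peak, Sox10 and Elavl4. Of 5 muscle markers, 0 had a pSmad1/5 and 1, Tnnt1, a pSmad3 peak. Peak lists hold no expression, so these markers do not check which cells the tissue held.

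Pitx1 had the busiest surroundings of the 9 genes, with 30 pSmad1/5 and 21 pSmad3 peaks within 1 Mb and none in its locus. Its nearest pSmad3 peak, 167 kb away and nearest to Macroh2a1, overlapped a pSmad1/5 peak by 1675 bp. At Lef1 the nearest pSmad3 peak, 319 kb away near Papss1, likewise overlapped a pSmad1/5 peak, by 2275 bp. Over the whole pSmad3 list, 23.1% of peaks were shared.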
